A study of Danio rerio with 58 samples.

Results

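The immediate early and stress genes described here are 10 genes of the zebrafish: fosab, junba, junbb, ier2a, ier2b, egr1, dusp1, atf3, gadd45aa and gadd45ba. They were picked out by symbol from the 35117 genes of the deposited count table, and the list was drawn up with earlier results of these data known. The symbols of 9 were in the table, and ier2b was found through its gene ID (ENSDARG00000086881). The study photoconverted the roof or the floor of the dorsal aorta in the embryonic trunk, dissociated the embryos and picked red cells by hand, and each cell became a Smart-seq2 library of polyA RNA. All embryos carried 2 transgenes, Tg(flk1:eGFP) and Tg(flk1:NLS-Eos), in which the promoter of the endothelial receptor gene flk1 drives a green reporter and a photoconvertible nuclear reporter. The groups were 12 floor cells and 10 roof cells of embryos at 28 hours post fertilisation (hpf), and 18 floor cells and 18 roof cells at 21 hpf. No genotype or treatment differed between them, and the labels call all 58 cells endothelial. The labels name no embryo, so the cells of a group were counted as 1 sample, and the differences below carry no test. All intervals are 95% intervals that cover the counting of reads only.

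Immediate early genes are transcribed within minutes of a stimulus, without a need for new protein, and their mRNAs decay quickly. Growth factors, flow and stretch switch them on through MAP kinase signalling, and so do wounding and the enzymes and shear used to dissociate tissue. Fos and Jun proteins pair to form AP-1, which binds DNA, while dual-specificity phosphatases such as Dusp1 remove phosphate from MAP kinases and so damp the signal. Atf3 and the Gadd45 proteins also take part in stress responses to amino acid shortage, misfolded protein and DNA damage. In the dorsal aorta the floor is the side from which blood stem cells emerge.

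Total counts per cell were 4339995 to 8254178 in floor cells and 3630613 to 5574794 in roof cells at 28 hpf, and 216581 to 4227288 in floor cells and 129849 to 4693992 in roof cells at 21 hpf. Levels per cell are counts per 1000000 counts of the cell (CPM). For sums and for detection, 200000 reads were drawn at random from each cell, here called thinned reads, and the shallowest roof cell of 21 hpf was too small for this. A gene was called detected in a cell at 5 or more thinned reads. The endothelial label was checked against 20 pan-endothelial markers. Their median share of counts was 0.104% in floor cells and 2.32% in roof cells at 28 hpf, and 0.145% in floor cells and 2.47% in roof cells at 21 hpf. In the floor cells of 28 hpf 12 of these 20 markers had no thinned read, cdh5, clec14a and cldn5b among them, and the floor cells of that stage go against their label. Erythroid markers took over 1% of counts in 3 of 12 floor cells at 28 hpf and 8 of 18 at 21 hpf, with highest shares of 9.33% and 9.25%, and in no roof cell. In 4 floor cells of 21 hpf (cells 3, 6, 16 and 18) the endothelial share, 0.933% to 3.74%, reached the range of the roof cells of that stage, which started at 0.530%. These 4 are called roof-like below. The other floor cells of 21 hpf had at most 0.239%, below every roof cell, and by this share go against their label too. Hemogenic markers, runx1 and myb among them, had a median share of 0.294% in floor cells and 0.0363% in roof cells at 28 hpf. At 21 hpf it was 0.213% in floor cells and 0.0725% in roof cells. For myeloid markers it was 0.0816% and 0.00341% at 28 hpf, and 0.107% and 0.00488% at 21 hpf. Muscle markers took 8.04% of the counts of 1 floor cell of 28 hpf. The titles at 28 hpf share parts between cells, such as M12 for 6 floor cells (for 1 of them M12 is in the description, and the title has D12 in its place), and no such part held both regions, so that it and the region cannot be told apart.

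Some of the genes were found in almost every cell whatever its region or stage. The early-response gene ier2a was detected in 57 of 57 thinned cells and junbb in 56 of 57. The AP-1 genes fosab and junba were each detected in 44 of 57 cells. These 4 genes were the ones detected in at least 50% of the cells of every group, as were 9.50% of the 14258 genes with 10 or more thinned reads over the 4 groups. Joint detection of all 4 covered 41 of 57 cells: 7 of 12 from the floor and 9 of 10 from the roof at 28 hpf, 13 of 18 from the floor and 12 of 17 from the roof at 21 hpf. The other genes were detected in fewer cells, with dusp1 in 38, ier2b in 30, gadd45ba in 29, atf3 in 22, gadd45aa in 12 and egr1 in 3 of 57. A floor cell of 28 hpf had 2 to 8 of the 10 genes detected with a median of 6, and a roof cell 4 to 8 with a median of 7. At 21 hpf the range was 3 to 7 with a median of 5 in floor cells, and 3 to 8 with a median of 7 in roof cells. Every cell was dissociated and picked, and no cell was measured without handling. A response to handling and a level already present in the embryo therefore cannot be told apart in what all cells share. The labels do not say which cells were prepared together, so the same holds for differences between regions and between stages.

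**Figure D1:**
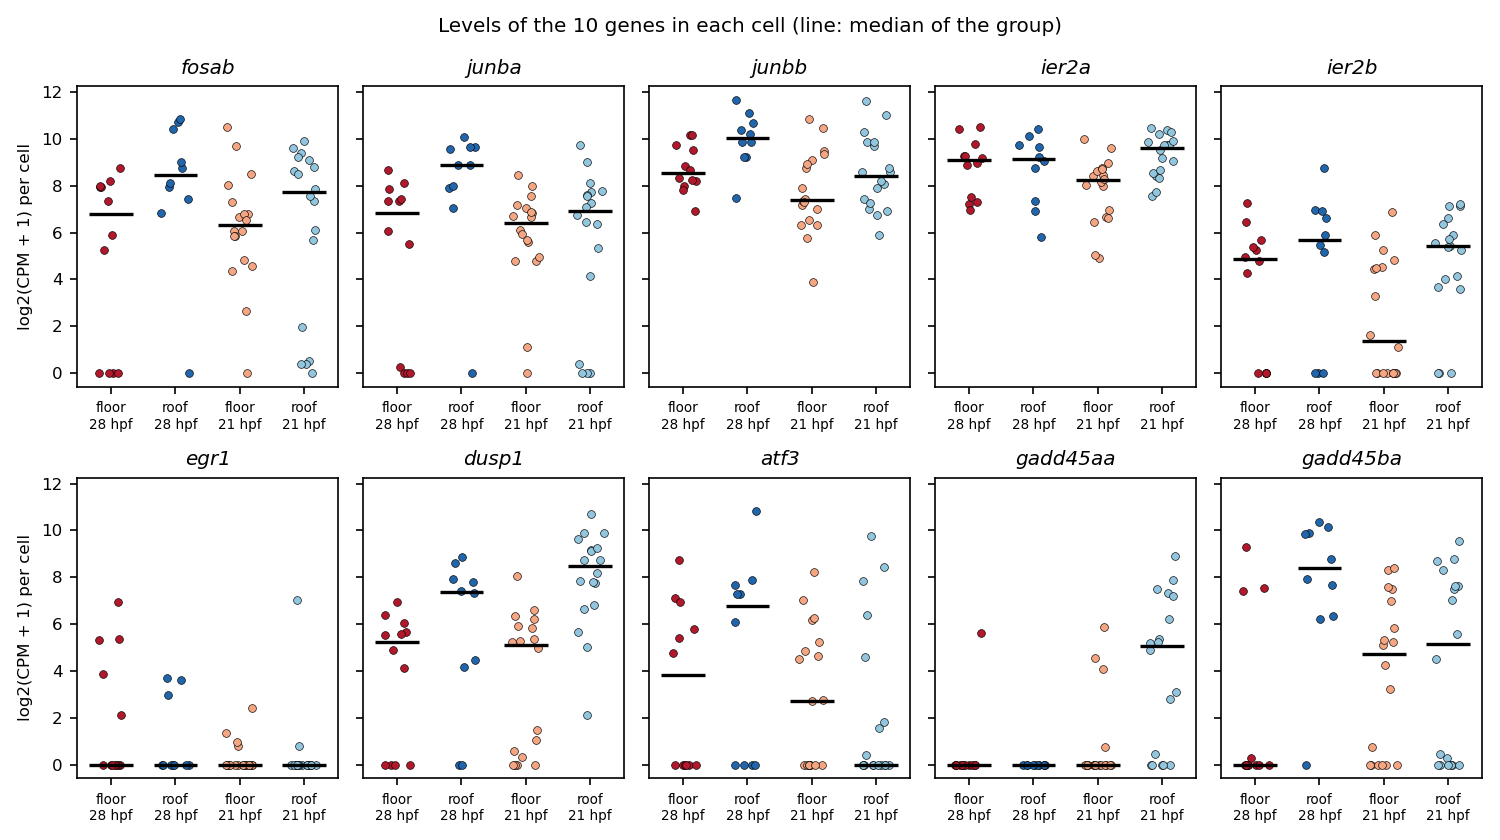
Level of each of the 10 genes in each of the 58 cells, as log2(CPM + 1) on the vertical axis, with floor and roof cells of 28 hpf and then floor and roof cells of 21 hpf along the horizontal axis. Each point is a cell and the bar is the median of the group. ier2a and junbb have no cell at 0, whereas egr1 is at 0 in 44 of 58 cells, and the floor and roof cells overlap for every gene.

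Beyond that shared presence, the levels differed between regions, and most of the genes were lower in the floor. Group levels are the thinned reads of a group divided by their total, and a gene needed 10 thinned reads over both groups to be measured. A ratio was counted when it reached 2-fold. At 28 hpf, 6 of the 9 genes measured were lower in the floor (fosab, junba, junbb, dusp1, atf3 and gadd45ba), where 35.6% of all 11194 genes measured were. Only egr1 was higher, where 34.9% of all genes were, while ier2a and ier2b were within 2-fold and gadd45aa had too few reads. The median log2 ratio of floor over roof was -1.83 over the 9 genes and 0.06 over all genes. At 21 hpf, 6 of 10 were lower in the floor (ier2a, ier2b, egr1, dusp1, gadd45aa and gadd45ba) and none was higher, against 25.5% lower and 32.7% higher among all 12955 genes. The median log2 ratio was -1.13 over the 10 genes and 0.15 over all genes. The genes counted at both stages in the same direction were dusp1 and gadd45ba. Summed over the 10 genes, the level was 1620 CPM in floor cells and 4077 CPM in roof cells at 28 hpf, and 1248 CPM in floor cells and 2753 CPM in roof cells at 21 hpf.

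**Figure D2:**
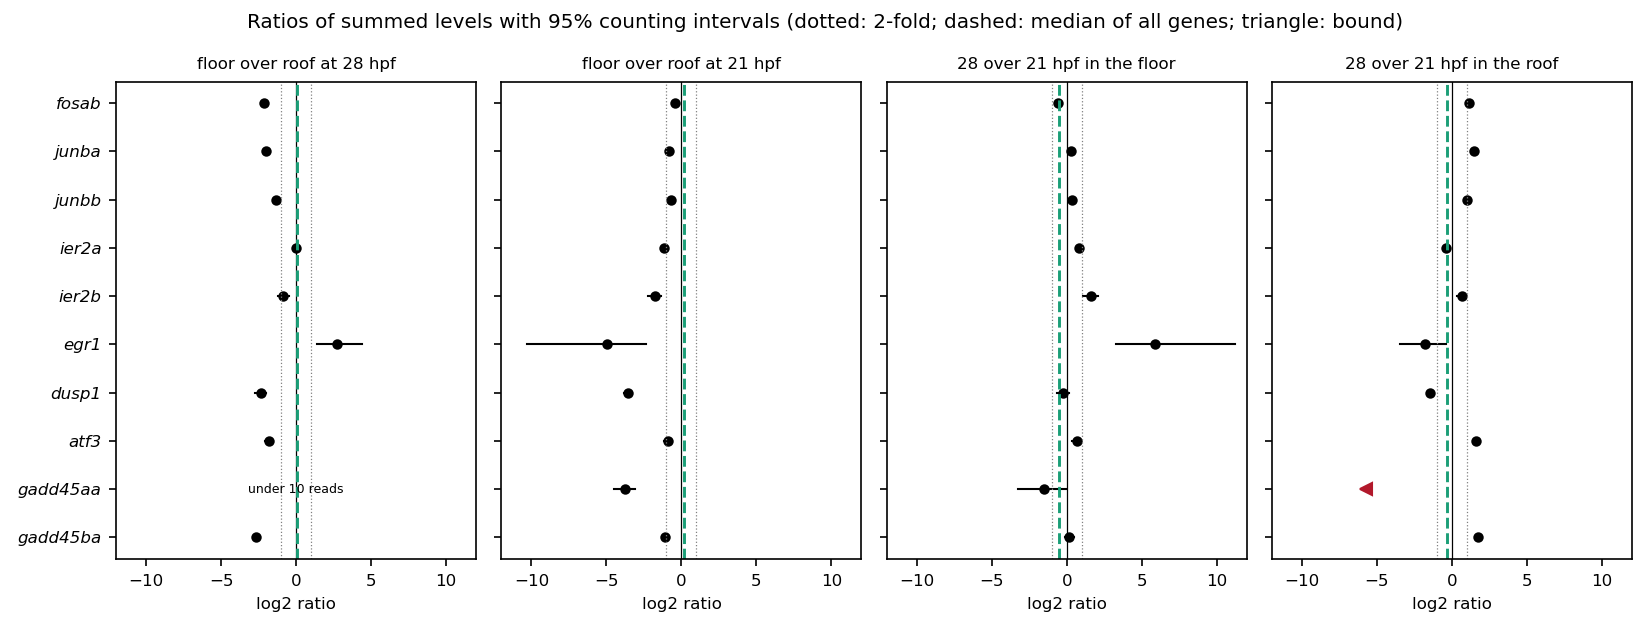
Log2 ratio of group levels for each gene in 4 comparisons, with horizontal lines for 95% counting intervals, dotted lines at 2-fold and a dashed line at the median of all genes measured. The triangle for gadd45aa in the roof is a bound, since that gene had no read in roof cells of 28 hpf. Of the 9 genes with a value at 28 hpf, 6 are at least 2-fold lower in the floor, as are 35.6% of all genes measured. At 21 hpf 6 of 10 are, beside 25.5% of all genes.

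The Fos gene fosab, whose protein pairs with Jun, ranged in floor cells of 28 hpf over 0, 109 and 435 CPM (lowest, median, highest) and in roof cells over 0, 355 and 1860 CPM. At 21 hpf it was 0, 78.3 and 1441 CPM in floor cells and 0, 211 and 955 CPM in roof cells. At 28 hpf 1 of 12 floor cells lay above the roof median and 4 roof cells lay above every floor cell. The floor level was 4.44-fold lower at 28 hpf (interval 3.94 to 5.02). At 21 hpf it was 1.38-fold lower (1.25 to 1.51), or 2.04-fold without floor cell 7, which held 36.2% of the floor reads. At 28 hpf 4 of 12 floor cells and 1 of 10 roof cells had no read of it.

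The Jun family gene junba had 0, 114 and 405 CPM (lowest, median, highest) in floor cells and 0, 470 and 1070 CPM in roof cells at 28 hpf. At 21 hpf the values were 0, 84.5 and 353 CPM in floor cells and 0, 121 and 851 CPM in roof cells. None of the 12 floor cells of 28 hpf exceeded the roof median, and 6 of 10 roof cells exceeded every floor cell. The floor level was 4.01-fold lower at 28 hpf (3.52 to 4.58), by 2.56-fold with TMM factors and 2.55-fold with DESeq2 size factors, and 6.24-fold without the 4 floor cells rich in erythroid or muscle markers. At 21 hpf the floor was lower by 1.76-fold (1.54 to 2.01), which became 2.05-fold without floor cell 7 and 2.34-fold without the 8 floor cells rich in erythroid markers.

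Its paralog junbb had reads in every cell. Floor cells of 28 hpf had 121, 367 and 1154 CPM (lowest, median, highest) and roof cells 176, 1065 and 3268 CPM, while floor cells of 21 hpf had 14, 167 and 1838 CPM and roof cells 59.0, 338 and 3179 CPM. At 28 hpf 2 of 12 floor cells lay above the roof median and 5 of 10 roof cells above every floor cell. The floor level was 2.55-fold lower at 28 hpf (2.39 to 2.73), but 1.91-fold with TMM factors and 1.71-fold with DESeq2 size factors, both short of 2-fold. Its floor level at 21 hpf was 1.63-fold lower (1.53 to 1.74). That ratio passed 2-fold when all counts were summed without thinning (2.46-fold), without floor cell 3 (2.05-fold) and without the 4 roof-like floor cells (2.46-fold).

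The 2 copies of ier2, which encode short-lived nuclear proteins, were both lower in the floor at 21 hpf. At 28 hpf ier2a was within 2-fold between regions, and so was ier2b, although other settings took ier2b past it. ier2a had 124, 542 and 1463 CPM (lowest, median, highest) in floor cells and 55.1, 564 and 1387 CPM in roof cells at 28 hpf. The distributions overlapped almost fully, with 6 of 12 floor cells above the roof median. The level was 574 CPM in floor cells and 572 CPM in roof cells, a ratio of 1.00 (0.928 to 1.09), or 1.55 with DESeq2 size factors. At 21 hpf ier2a had 28.8, 299 and 1028 CPM in floor cells and 186, 791 and 1434 CPM in roof cells. In that stage 1 of 18 floor cells lay above the roof median, and the floor level was 2.28-fold lower (2.13 to 2.44). It varied least among the roof cells of 21 hpf, with a coefficient of variation of 0.521.

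ier2b had 0, 28.4 and 154 CPM (lowest, median, highest) in floor cells and 0, 50.6 and 428 CPM in roof cells at 28 hpf, and 0, 1.61 and 117 CPM in floor cells and 0, 41.9 and 149 CPM in roof cells at 21 hpf. Roof cell 6 alone held 52.6% of the roof reads of 28 hpf. With it the floor was 1.80-fold lower (1.41 to 2.30), without it 1.06-fold higher. The floor was past 2-fold lower with all counts summed without thinning (2.58-fold), with mean CPM per cell (2.44-fold), with another random seed (2.50-fold), with totals without mitochondrial genes (2.57-fold), with TMM factors (2.03-fold), and without floor cell 1 (2.41-fold) or floor cell 3 (2.02-fold). Without roof cell 2, 3 or 10 it was 2-fold lower. Detection of ier2b at 21 hpf reached 4 of 18 in the floor and 11 of 17 in the roof, and the floor level was 3.44-fold lower (2.54 to 4.71). That ratio was 7.25-fold without the 4 roof-like floor cells, whose level was 45 CPM, and 5.29-fold without floor cell 18 alone.

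The zinc finger factor gene egr1, a classical early gene of the MAP kinase and serum response, was seen in few cells. Cells with a detection numbered 2 of 12 in the floor and 0 of 10 in the roof at 28 hpf, then 0 of 18 in the floor and 1 of 17 in the roof at 21 hpf. These counts depend on the thinning: before it, cells with any read numbered 5 of 12 in the floor and 3 of 10 in the roof at 28 hpf, and 4 of 18 in the floor and 2 of 18 in the roof at 21 hpf. The highest cells had 123 CPM in the floor and 12 CPM in the roof at 28 hpf, and 4.38 CPM in the floor and 129 CPM in the roof at 21 hpf. Thinned reads were 39 in floor cells and 5 in roof cells at 28 hpf, and 1 in floor cells and 29 in roof cells at 21 hpf. Floor cell 10 of 28 hpf gave 66.7% of its group's reads and roof cell 2 of 21 hpf gave 96.6%. The floor was 6.5-fold higher at 28 hpf (2.56 to 21.1), or 2.36-fold without floor cell 10, 3.00-fold without the cells of title part M12 and also without those rich in erythroid or muscle markers, and 14.6-fold without roof cell 1. At 21 hpf it was 30.7-fold lower (5.09 to 1254), and without roof cell 2 only 1 read was left in each group, too few for a ratio.

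The phosphatase gene dusp1 was lower in most floor cells rather than in a few. At 28 hpf floor cells had 0, 37.1 and 121 CPM (lowest, median, highest) and roof cells 0, 166 and 463 CPM, and at 21 hpf floor cells had 0, 33.7 and 263 CPM and roof cells 3.41, 354 and 1665 CPM. None of the 12 floor cells of 28 hpf and none of the 18 of 21 hpf exceeded the median of the roof cells of the same stage. In turn 6 of 10 roof cells of 28 hpf and 10 of 18 of 21 hpf exceeded every floor cell, although the ranges overlapped. The floor level was 5.11-fold lower at 28 hpf (3.98 to 6.62), by 2.84-fold with TMM factors, 2.71-fold with DESeq2 size factors and 9.96-fold without title part M12. At 21 hpf the level was 38.9 CPM in floor cells and 455 CPM in roof cells, an 11.7-fold difference (interval 9.84 to 14). Leaving out the 4 floor cells of roof-like endothelial share made it 17.9-fold. Those 4 cells had a level of 86.3 CPM, the 8 erythroid-rich cells 29.4 CPM and the other 6 floor cells 20 CPM. The 4 were far apart, with 263 CPM in floor cell 16, 73.9 CPM in floor cell 18, 55.4 CPM in floor cell 6 and 1.75 CPM in floor cell 3.

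The stress factor gene atf3, which encodes a partner of AP-1 proteins, had much of its reads in a single cell of each group. Floor cells of 28 hpf had 0, 13.3 and 428 CPM (lowest, median, highest) and roof cells 0, 110 and 1839 CPM, while floor cells of 21 hpf had 0, 5.64 and 301 CPM and roof cells 0, 0 and 855 CPM. Roof cell 2 held 72.0% of the roof reads of 28 hpf, and the next roof cell had 232 CPM. The floor was 3.55-fold lower at 28 hpf (2.99 to 4.24), but 1.11-fold lower without roof cell 2, 7.96-fold without floor cell 4 and 1.98-fold without title part M12. In the younger embryos it was 1.86-fold lower (1.53 to 2.26), turned to 1.14-fold higher without roof cell 12, and passed 2-fold in other settings, at 3.20-fold without floor cell 17, 2.59-fold with another random seed and 2.81-fold without erythroid-rich cells. Cells with atf3 detected were 6 of 12 in the floor and 6 of 10 in the roof at 28 hpf, then 6 of 18 in the floor and 4 of 17 in the roof at 21 hpf.

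The Gadd45 genes, whose proteins act in growth arrest and DNA damage signalling, followed different patterns. gadd45aa had no read in 11 of 12 floor cells and in all 10 roof cells of 28 hpf, also before thinning. For the 0 thinned reads in the roof, the upper end of the interval was 1.84 CPM. At 21 hpf it reached 57.8 CPM in floor cells, with a median of 0, and 476 CPM in roof cells, with a median of 32.4 CPM. Detection at 21 hpf was 2 of 18 in the floor and 9 of 17 in the roof, and the floor level of 5.83 CPM was 13.7-fold lower than the roof level of 79.7 CPM (8.76 to 22.4). The ratio was 33.9-fold without floor cell 9, which held 61.9% of the floor reads, and 8.39-fold without the erythroid-rich cells.

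gadd45ba had 0, 0 and 635 CPM (lowest, median, highest) in floor cells and 0, 340 and 1318 CPM in roof cells at 28 hpf. Floor cells with the gene detected were 3 of 12, roof cells 9 of 10, and 4 of 10 roof cells exceeded every floor cell. The floor level was 6.31-fold lower (5.41 to 7.39), and 19.6-fold lower without floor cell 7, which held 70.6% of the floor reads, or 20.1-fold without title part M12. At 21 hpf floor cells had 0, 25.7 and 332 CPM and roof cells 0, 34.4 and 743 CPM, with 8 of 18 floor cells above the roof median. In that stage the floor was 2.11-fold lower (1.81 to 2.45), and its place beyond 2-fold depended on the setting, with 1.39-fold when all counts were summed without thinning, 1.88-fold with TMM factors and 1.65-fold without roof cell 14.

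**Figure D3:**
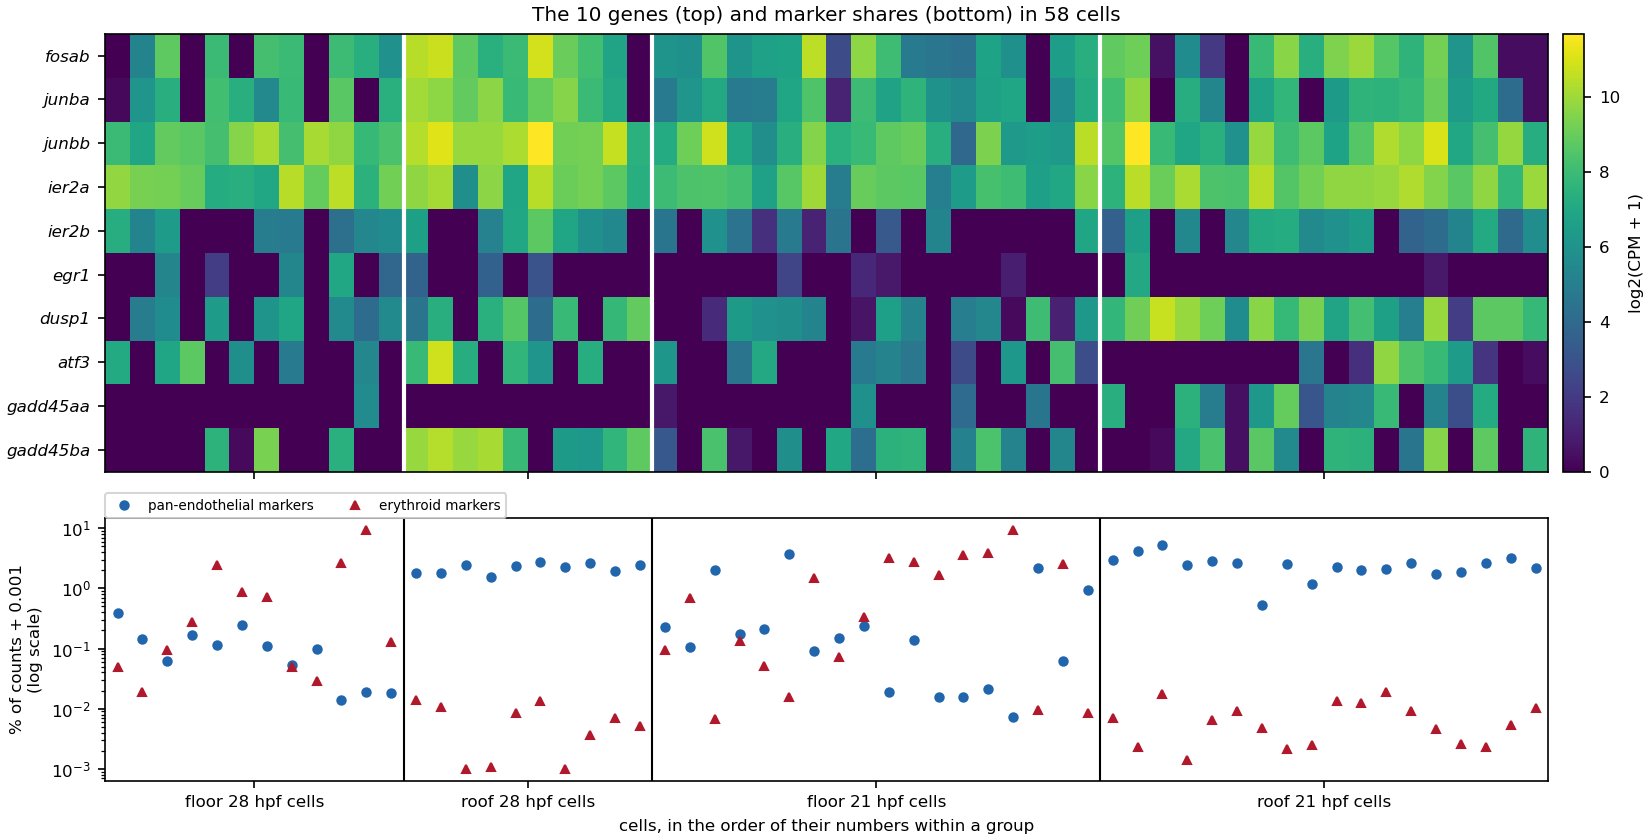
Upper panel, log2(CPM + 1) of the 10 genes (rows) in each of the 58 cells (columns, in the order of their numbers within a group), with white lines between groups. Lower panel, the share of each cell's counts on pan-endothelial and erythroid markers in percent on a log scale, with a small constant added so that 0 can be drawn. dusp1 is above 0 in all 18 roof cells of 21 hpf and gadd45ba in 9 of 10 roof cells of 28 hpf, whereas atf3 and egr1 stand out in single cells.

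Between stages, 3 of the genes were at least 2-fold apart in the floor and 7 in the roof. These comparisons share their cells with those between regions. In the floor, ier2b and egr1 were higher at 28 hpf than at 21 hpf and gadd45aa was lower, among 10 genes measured, where 16.7% of all 12258 genes were higher and 42.0% lower. ier2b was 3.00-fold higher (2.16 to 4.2), or 1.88-fold with another random seed and 1.97-fold with TMM factors. Without the 4 roof-like floor cells of 21 hpf it was 6.33-fold higher, and without floor cell 18 of 21 hpf 4.61-fold. egr1 was 58.5-fold higher (9.90 to 2369) against a group with 1 read, and 21.3-fold without floor cell 10 of 28 hpf. gadd45aa was 2.80-fold lower (1.03 to 9.50) on 5 reads at 28 hpf, all from floor cell 11, and 21 reads at 21 hpf, and 1.13-fold lower without floor cell 9 of 21 hpf. With all cells it was 1.03-fold lower with another random seed, 1.33-fold with mean CPM per cell, 1.34-fold with TMM and 1.44-fold with DESeq2 factors. ier2a, not counted, was 1.72-fold higher (1.59 to 1.86). It was 2.19-fold higher with raw sums, 2.27-fold with TMM and 2.47-fold with DESeq2 factors. atf3, not counted either, was 1.59-fold higher (1.28 to 1.98). It was 3.28-fold higher without the cells rich in erythroid or muscle markers and 1.41-fold lower without floor cell 4 of 28 hpf. gadd45ba was 1.13-fold higher with floor cell 7 of 28 hpf and 2.75-fold lower without it. The median log2 ratio was 0.30 over the 10 genes and -0.55 over all genes.

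In the roof, fosab, junba, atf3 and gadd45ba were higher at 28 hpf than at 21 hpf and egr1, dusp1 and gadd45aa were lower, where 22.5% of all 11653 genes were higher and 35.0% lower. The level of gadd45ba was 518 CPM at 28 hpf and 153 CPM at 21 hpf, 3.39-fold higher (3.05 to 3.78), and that of junba 2.78-fold higher (2.51 to 3.07). For both genes 9 of 10 roof cells of 28 hpf lay above the median of the roof cells of 21 hpf. fosab was 2.15-fold higher (1.98 to 2.34), which fell short of 2-fold with DESeq2 size factors (1.97-fold) and without roof cells 1, 2 or 6 of 28 hpf (1.86-fold, 1.81-fold and 1.77-fold). junbb, not counted, was 1.96-fold higher (1.86 to 2.08). It passed 2-fold without some single cells, such as roof cell 2 (2.54-fold) or roof cell 14 (2.23-fold) of 21 hpf. atf3 was 3.04-fold higher (2.63 to 3.53) with roof cell 2 and 1.06-fold lower without it. In the other direction dusp1 was 2.74-fold lower (2.43 to 3.10), with 2 of 10 roof cells of 28 hpf above the median of 21 hpf. gadd45aa was at least 53.1-fold lower, with its 0 reads at 28 hpf entered as 3, and 13 of 18 roof cells of 21 hpf had a read. egr1 was 3.41-fold lower (1.31 to 11.3), a ratio on 5 and 29 reads, or 7.68-fold lower without roof cell 1 of 28 hpf. Roof cell 2 held 28 of the 29 reads of 21 hpf, and without it too few were left for a ratio.

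Ordered by group level, some of the genes shared an order and each of the others had its own. junba, junbb, ier2b, atf3 and gadd45ba all ran from roof at 28 hpf through roof at 21 hpf and floor at 28 hpf to floor at 21 hpf. fosab differed from that order only in the place of the floor groups. For ier2b, atf3 and gadd45ba the order rested on single cells. Without roof cell 6 of 28 hpf the roof level of ier2b was 45 CPM, below 54.4 CPM at 21 hpf. Without roof cell 2 of 28 hpf that of atf3 was 81.1 CPM, below 85.6 CPM at 21 hpf. Without floor cell 7 of 28 hpf the floor level of gadd45ba was 26.4 CPM, below 72.5 CPM at 21 hpf. dusp1 and ier2a were highest in roof cells of 21 hpf, as was gadd45aa, and egr1 was highest in floor cells of 28 hpf. The ranges of cells of neighbouring groups in these orders overlapped for all 10 genes.

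Within groups, the genes moved together only in part. Levels were centred on the mean of each group as log2(CPM + 1) of thinned reads, and correlated over the 57 cells, which share libraries and differ in depth and cell type. fosab and junba had r = 0.79, with 0.61 in floor cells and 0.92 in roof cells at 28 hpf, and 0.80 in floor cells and 0.88 in roof cells at 21 hpf. The 2 genes were detected together in 41 of 57 cells, in 10 cells neither was, and in 3 cells each only 1 was. Over all 57 cells the other pairs had lower r, although single groups differed from this: in floor cells of 28 hpf dusp1 had r = 0.93 with fosab and 0.70 with junba, both above that of fosab with junba there, while in the other 3 groups both values were below 0. Over the 28 pairs of the 8 genes detected in at least 20 cells, 24 had r above 0, the median was 0.16, and the lowest was -0.35 for dusp1 with atf3. Floor cell 10 of 28 hpf had the highest junba, ier2a and egr1 of its group, floor cell 7 of 21 hpf the highest fosab, junba and ier2a, and roof cell 2 of 21 hpf the highest junba, junbb, ier2a and egr1. The 5 genes outside the list whose centred levels followed the mean of the 10 most closely, of 4371 searched, were mdh2 (r = 0.53), rpa2 (0.50), rpl10 (0.50), socs3b (0.49) and si:dkey-23i12.7 (0.49). They are the highest values of a large search, and how high unrelated genes would reach in it was not tested. The same mean had r = -0.14 with log10 total counts, 0.31 with the number of genes with a read, 0.21 with the mitochondrial share, -0.16 with the endothelial share and 0.09 with the erythroid share.

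**Figure D4:**
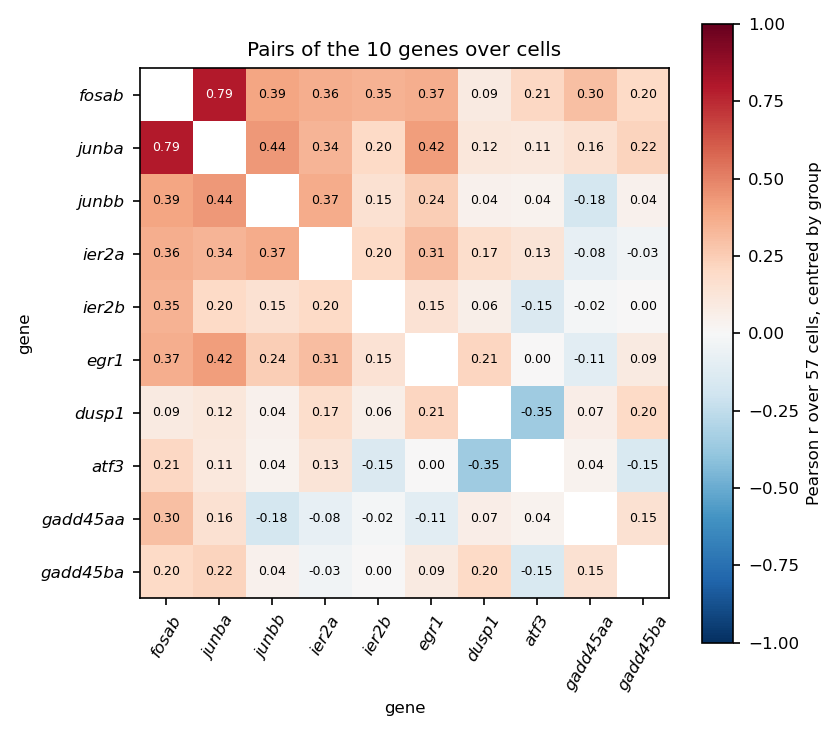
Pearson correlation over 57 cells between each pair of the 10 genes, after the mean of each group was removed from log2(CPM + 1). The pair fosab and junba stands at 0.79, and dusp1 with atf3 at -0.35 is the lowest.

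Other genes of the same pathways were counted in the same way, with genes at 0 in a group entered at 3 reads. Genes named here and in the lists below had ratios among the 3 largest each way of their list, where the higher group had 50 CPM or more. Not all such genes are named. Single cells were not left out in turn for them, so that a ratio may rest on few cells. Of 11 other AP-1 genes, 5 of 7 measured were lower in the floor at 28 hpf and none higher, and 3 of 8 were lower and 2 higher at 21 hpf. Of all genes measured, 35.6% were lower and 34.9% higher at 28 hpf, and 25.5% and 32.7% at 21 hpf. The Jun gene jun had 51.7 CPM in floor cells and 558 CPM in roof cells at 28 hpf, 10.8-fold lower (8.97 to 13.1), and the Fos-related gene fosl2 was 5.55-fold lower at 28 hpf (4.88 to 6.34) and 3.17-fold lower at 21 hpf (2.90 to 3.47). mafk was 10.4-fold lower at 28 hpf (7.26 to 15.5) and 3.30-fold lower at 21 hpf (2.45 to 4.52). jund was 11.6-fold lower in the floor at 21 hpf (7.60 to 18.4), while the Fos-related gene fosl1a was 2.26-fold higher there (1.79 to 2.86).

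Of 37 other immediate early genes, 34 were in the table. At 28 hpf 19 of 28 measured were lower in the floor and 3 higher, and at 21 hpf 18 of 26 were lower and 2 higher. The shares of all genes were 35.6% lower and 34.9% higher at 28 hpf, and 25.5% and 32.7% at 21 hpf. At 28 hpf the matricellular gene ccn1l2 was at least 301-fold lower, with 0 CPM in floor cells and 376 CPM in roof cells. The kinase gene sgk1 was at least 100-fold lower in the floor at 28 hpf and 21.6-fold lower at 21 hpf (17.9 to 26.3). zfp36l1b, whose product destabilises mRNAs, was 38.1-fold lower at 28 hpf (24.9 to 61.2). At 21 hpf klf2a, a flow-responsive gene of endothelium, was at least 64.6-fold lower, with 0 CPM in floor cells and 53.8 CPM in roof cells, and ccn1 was 13.4-fold lower (10.3 to 17.7). In the other direction mycb was 13.9-fold higher at 28 hpf (8.67 to 23.8) and 14.5-fold higher at 21 hpf (10.5 to 20.5), and the nuclear receptor gene nr4a3 was 14.2-fold higher at 28 hpf (7.78 to 29.0).

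Feedback regulators of MAP kinase signalling other than dusp1 were also mostly lower in the floor, with 7 of 12 lower and 4 higher at 28 hpf (2 higher under each of 4 other scalings), and 10 of 12 lower and 1 higher at 21 hpf. Beside these counts and those of the Gadd45 genes below, 35.6% of all genes were lower and 34.9% higher at 28 hpf. At 21 hpf these shares were 25.5% and 32.7%. The inhibitor gene spry4 was 517-fold lower at 28 hpf on 1 floor read (92.3 to 20475) and 27.7-fold lower at 21 hpf (20.2 to 39.1). spred1 was at least 52.8-fold lower at 28 hpf, and the ERK phosphatase gene dusp6 19.5-fold lower (9.61 to 46.1), while spred2a was 2.26-fold higher (1.59 to 3.26). At 21 hpf spry2 was 5.58-fold lower (4.51 to 6.97) and dusp5 3.52-fold lower (3.38 to 3.67). Of 4 other Gadd45 genes 3 were measured at each stage. At 28 hpf 2 were higher and 1 lower in the floor, with gadd45ab at 74.6 CPM in floor cells and 0 CPM in roof cells, at least 49.7-fold higher, and at 21 hpf 1 was higher and 1 lower, with gadd45bb 25.6-fold lower (13.3 to 56.8).

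**Figure D5:**
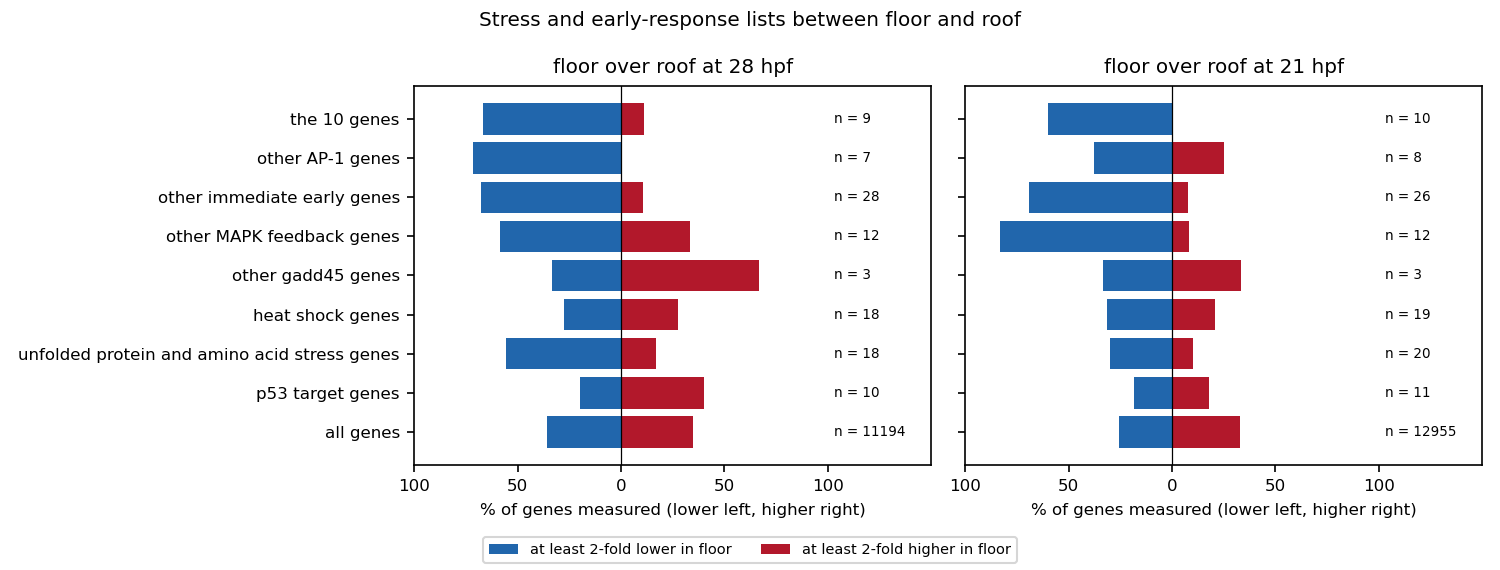
Share of the measured genes of each list that were at least 2-fold lower (bars to the left) or higher (bars to the right) in the floor, at 28 hpf and at 21 hpf, with the number of genes measured as n. The lower share of the MAPK feedback genes at 21 hpf, 10 of 12, stands beside 25.5% of all genes.

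The lists of other stress responses differed among themselves. Of 18 heat shock genes measured at 28 hpf 5 were higher and 5 lower in the floor, and of 19 at 21 hpf 4 were higher and 6 lower. All genes measured had 34.9% higher and 35.6% lower at 28 hpf, and 32.7% and 25.5% at 21 hpf. The mitochondrial chaperone gene hspd1 was 7.86-fold higher at 28 hpf (6.32 to 9.88) and 3.00-fold higher at 21 hpf (2.62 to 3.45). Its partner hspe1 was 5.6-fold higher at 28 hpf (4.56 to 6.95), whereas serpinh1b, a collagen chaperone gene, was at least 794-fold lower. The stress-inducible genes hsp70.2 and hsp70.3 were 6.55-fold (5.96 to 7.20) and 4.76-fold (4.45 to 5.09) lower in the floor at 21 hpf.

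Among genes of the unfolded protein and amino acid responses, 10 of 18 were lower and 3 higher in the floor at 28 hpf, and 6 of 20 were lower and 2 higher at 21 hpf. For this list and the p53 target genes below, the shares of all genes were 35.6% lower and 34.9% higher at 28 hpf. At 21 hpf they were 25.5% and 32.7%. ddit3, whose product pairs with other bZIP factors in this response, was 7.24-fold lower at 28 hpf (5.02 to 10.7) and 5.36-fold lower at 21 hpf (3.95 to 7.38). The chaperone gene hspa5 was 5.86-fold lower at 28 hpf (5.45 to 6.31), and trib3 was 7.05-fold lower at 21 hpf (6.44 to 7.73). cebpb was higher in the floor at both stages, by 21.7-fold at 28 hpf (17 to 28.1) and 16-fold at 21 hpf (12.8 to 20.3). Of p53 target genes 4 of 10 were higher and 2 lower in the floor at 28 hpf, with mdm2, the p53 antagonist gene, 3.73-fold higher (2.74 to 5.18), and 2 of 11 were higher and 2 lower at 21 hpf, with pmaip1 25.8-fold higher (22.4 to 29.8). Over 7 settings at 28 hpf the heat shock genes lower in the floor numbered 4 to 8 and the p53 target genes higher in the floor 2 to 5.

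Between stages the other lists divided as follows. Of all genes measured, 16.7% were higher and 42.0% lower at 28 hpf in the floor, and 22.5% and 35.0% in the roof. In the floor at 28 hpf, 2 of 8 AP-1 genes were higher and 3 lower, and so were 8 and 8 of 26 immediate early genes and 6 and 5 of 12 MAPK feedback genes. Over 8 settings the AP-1 genes lower numbered 1 to 4, and the immediate early genes 5 to 10 higher and 4 to 8 lower. nr4a3 was 40.3-fold higher there (19.2 to 102), dusp6 was 39.8-fold lower (20.1 to 92.8) and plk2b was 6.73-fold lower (5.67 to 8.02). In the roof at 28 hpf, 4 of 7 AP-1 genes were higher and 1 lower, with fosb 8.46-fold higher (6.1 to 12) and jund 4.06-fold lower (2.88 to 5.86). Of 28 immediate early genes 8 were higher and 8 lower in the roof, with socs3a 13.5-fold higher (9.24 to 20.5) and sgk1 5.52-fold lower (4.84 to 6.31). Of 11 MAPK feedback genes 1 was higher and 3 lower in the roof, with dusp6 7.00-fold lower (5.85 to 8.43), the direction that dusp1 also had. Of 18 heat shock genes 5 were higher and 5 lower in the floor, and 3 and 7 of 18 in the roof. For unfolded protein and amino acid genes it was 1 and 10 of 21 in the floor, and 2 and 8 of 20 in the roof. p53 target genes had 1 and 3 of 10 in the floor, and 0 and 3 of 11 in the roof. Other Gadd45 genes had 0 and 1 of 3 in the floor, and 0 and 1 of 2 in the roof.

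Cells that carried markers of other types were present in the floor groups, and their levels of the 10 genes stand beside the differences above. At 28 hpf the 3 erythroid-rich floor cells had a fosab level of 213 CPM and a junba level of 223 CPM, and the other 9 floor cells 118 CPM and 92.8 CPM, against 632 CPM and 503 CPM in roof cells. At 21 hpf junba was at 135 CPM in the 8 erythroid-rich floor cells and 108 CPM in the 4 cells of roof-like endothelial share. It was at 57.5 CPM in the other 6 floor cells, against 181 CPM in roof cells. junbb was at 331 CPM in the erythroid-rich cells, 913 CPM in the cells of roof-like endothelial share and 206 CPM in the other 6 floor cells, against 682 CPM in roof cells. The 4 cells of roof-like share were far apart, with 1838 and 1424 CPM in floor cells 3 and 18 and 162 and 90.6 CPM in floor cells 6 and 16. The part of the cell types in the differences between floor and roof was not tested. At 28 hpf no floor cell reached the endothelial share of a roof cell (highest 0.382% in the floor, lowest 1.54% in the roof). At 21 hpf 6 of the 10 genes were lower in the floor with all cells, where 25.5% of all genes were. Without the 4 cells of roof-like endothelial share 7 were lower, and without erythroid-rich cells 8. The share of all genes was not counted for these smaller sets of cells.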

How the data were processed

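The authors deposited gene counts for 58 single cells from Smart-seq2 libraries. Trim Galore trimming and STAR alignment on GRCz11 (danRer11) precede these counts, per the submitters' processing notes. Not given in the sources used here are the counting tool, its strand setting and the annotation, so that reads of paralogous or overlapping genes may have been split or shared. Groups came from the labelled region and stage.

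Python 3.11.15, numpy 2.4.6, pandas 2.3.3 and scipy 1.17.1 were used, with edgeR 4.0.16 and DESeq2 1.42.0 in R 4.3.3 for other scalings, and matplotlib 3.10.9 for drawing. Cells were thinned to 200000 reads without replacement (seed 1), which left 57 cells. No doublet caller was run on cells picked by hand, and no filter on cells was applied. Thinned counts were summed per group. Ratios have exact binomial intervals from the reads of both groups, and shares of cells were not tested. A gene needed 10 reads over both groups, and a group at 0 entered at 3. With all cells and the settings given here, counts of called genes were repeated over all genes of the table. Reads amplified by PCR are not independent molecules, so intervals and floors cover counting error only.

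The 10 genes and the other lists were chosen with earlier results of these data known. All 10 are named. From the other lists, genes were named out of the up to 3 each way with the largest ratios of 2-fold or more where the higher group had 50 CPM, and not all of these are named. Of 203 list genes 200 were in the table, and 4701 symbols came from a table of gene IDs. The steps were tested on simulated cells that had the same composition within a group. Differences between the cells of a group, as seen here, were not part of that simulation. No 2 cells held identical counts.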

Additional observations from a re-analysis of the deposited data

Results flagged for a closer look

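Among the 10 roof cells of 28 hpf, roof cell 6 had 428 CPM of ier2b, where the next cell had 123 CPM, and roof cell 2 had 1839 CPM of atf3, where the next had 232 CPM. In both cases the gap to the next cell, as a share of the whole range of the group, exceeded the 95% critical value of Dixon for 10 samples. That level holds for normally distributed values, whereas 3 of these 10 cells had no read of ier2b and 4 had none of atf3. How often chance gives such a gap here is therefore not known, and the flags are descriptive only. The other 3 groups were not compared with a critical value, so cells that stand apart there carry no flag. An example is roof cell 2 of 21 hpf, with 129 CPM of egr1, where the next cell had 0.753 CPM.

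The log2 ratio of egr1, floor over roof, was 2.70 at 28 hpf and -4.94 at 21 hpf, and 28 over 21 hpf it was 5.87 in the floor and -1.77 in the roof. The signs differ between stages and between regions, and the difference was not tested. Floor cell 10 of 28 hpf and roof cell 2 of 21 hpf held most of these reads.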

How the results depend on the processing

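Other settings were raw sums, mean CPM per cell, TMM and DESeq2 factors, another seed, totals without mitochondrial genes, no minimum or 50 reads, a pseudocount of 1 CPM, cell exclusions and each cell left out in turn. Of the 10 genes, 7 were at least 2-fold apart between floor and roof at 28 hpf (7 to 8 without 1 cell) and 6 at 21 hpf (5 to 7). Of all genes, 34.9% were higher and 35.6% lower in the floor at 28 hpf, and 32.7% and 25.5% at 21 hpf. Between stages 3 of the 10 were apart in the floor (2 to 4) and 7 in the roof (5 to 8). Of all genes, 16.7% were higher and 42.0% lower at 28 hpf in the floor, and 22.5% and 35.0% in the roof. A ratio of 2-fold either way was thus common among all genes. The counts of the 10 genes stayed within 1.5 times of those given, except in the floor between stages. There 1 was apart at a minimum of 50 reads and 6 without title part M12, and the cause was not tested. The log2 ratio of atf3 in the roof, 28 over 21 hpf, was -0.078 without roof cell 2 of 28 hpf, against 1.61 with all cells, and 2.69 without roof cell 12 of 21 hpf. The fold bound of gadd45aa there was 1037 by raw sums, since the floor of 3 reads is then smaller beside the total. With raw sums and other scalings gadd45aa at 28 hpf, read in 1 floor cell, also counted as higher in the floor.

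The median of all genes, floor over roof at 28 hpf, moved by 0.18 on the log2 scale with TMM factors, 0.27 with DESeq2 factors and -0.12 with raw sums. At 21 hpf it moved by 0.15 with TMM factors, and in the roof between stages by -0.26 with DESeq2 factors and 0.10 with raw sums. Over 7 settings chosen after the data were seen, the lower counts of the other AP-1, immediate early and MAPK feedback genes at 28 hpf stayed at 4 to 5, 16 to 19 and 7 to 8, and at 21 hpf at 3 to 4, 17 to 20 and 10 to 11. Exclusions that touched no cell of a comparison gave no value. No paired analysis was possible because the numbers only name cells and no result comes from a test. The few thinned reads of egr1 and gadd45aa give wide counting intervals, although gadd45aa also had no read in any roof cell of 28 hpf before thinning.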
